A study of Mus musculus with 4 samples.

Results

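The 30 integrin and laminin chain genes are described here, among the 12661 genes measured by RNA-seq in perivascular adipose tissue (PVAT), the fat that surrounds blood vessels. They are all genes whose symbol starts with Itga or Itgb, without the binding proteins of these chains, or with Lama, Lamb or Lamc and a digit. They comprise 7 leukocyte integrin chains, 15 matrix integrin chains, 7 laminin chains and *Itgbl1*, a secreted protein with integrin-like repeats that the symbol rule takes in although it is no integrin chain. RNA was extracted from tissue lying outside the femoral artery, labelled as PVAT, of wild type C57BL/6 female mice that were all ovariectomized and 11 weeks of age. A straight spring wire of 0.38 mm was passed into the artery in the injury group, the sham group had the operation without it, and tissue was taken at 48 h. Each group had 2 libraries from 480 ng of total RNA. Because the whole tissue was taken, fewer cells of a type and less RNA of a gene per cell cannot be told apart in any result below.

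Integrins are receptors of the cell surface made of one alpha and one beta chain. Those of leukocytes, among them the beta-2 family and the beta-7 pairs, bind ligands on endothelium and other cells and are used for adhesion and migration into tissue. Those of the matrix bind collagens, laminins or proteins with an arginine-glycine-aspartate (RGD) motif. Laminins are trimers of an alpha, a beta and a gamma chain and form a sheet in the basement membranes that surround adipocytes, smooth muscle cells, Schwann cells and vessels.

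The deposited values are signed, log-like and centred separately for each gene, so they compare libraries within a gene and say nothing of which gene is more abundant. Their log base is unknown, and values and differences are given in deposited units. Sequencing depth is unknown. Differences are injury minus sham, with standard errors and p-values from limma, adjusted by the Benjamini-Hochberg method across the 12661 genes. A gene is said to be called when its adjusted p-value was under 0.05. The smallest two-sided p that exact permutation can reach with 2 libraries per group is 0.333, so each call uses the variance that limma borrows from the other genes. Nothing in the labels says that the libraries of a group came from separate animals, so the p-values may measure technical spread alone.

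After injury 4 of 7 leukocyte integrin genes rose and the others did not pass the test, while genes of matrix integrins and laminins fell or did not pass it. Of the 30 genes, 4 were called higher and 5 lower, or 30%, where 7.43% of all genes were called (3.76% higher and 3.67% lower). All 4 genes called higher were leukocyte integrins, among 7 of that group. The 5 called lower were 3 of the 15 matrix integrins and 2 of the 7 laminins. Both injury libraries lay above both sham libraries in 6 of the leukocyte integrins and 2 of the matrix integrins, an order found in 31.6% of all genes. They lay below both sham libraries in 10 matrix integrins and in all 7 laminins, an order found in 30.3% of all genes. The groups were apart in either direction in 25 of the 30 genes, against 61.9% of all genes, and 18 of the 30 had an unadjusted p-value under 0.05 in limma, against 29.5%. With a block for the replicate number 8 were called, against 5.4% of all genes. The median difference was 1.32 for leukocyte integrins, -0.45 for matrix integrins and -0.65 for laminins, beside 0.0085 for all genes. Calls were sensitive to the libraries used. Without sham replicate 1 or sham replicate 2 none of the 30 genes was called by limma (of all genes 0 and 1 were), without injury replicate 1 there were 2 calls, *Itgb4* and *Itgb7* (284 of all genes), and without injury replicate 2 there were 16 (1790 of all genes), with *Itga1*, *Itga4*, *Itga8*, *Itga10*, *Itgal*, *Itgbl1* and *Lama5* gained. In these fits the lone library of a group is taken to vary like the other group.

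**Figure D1:**
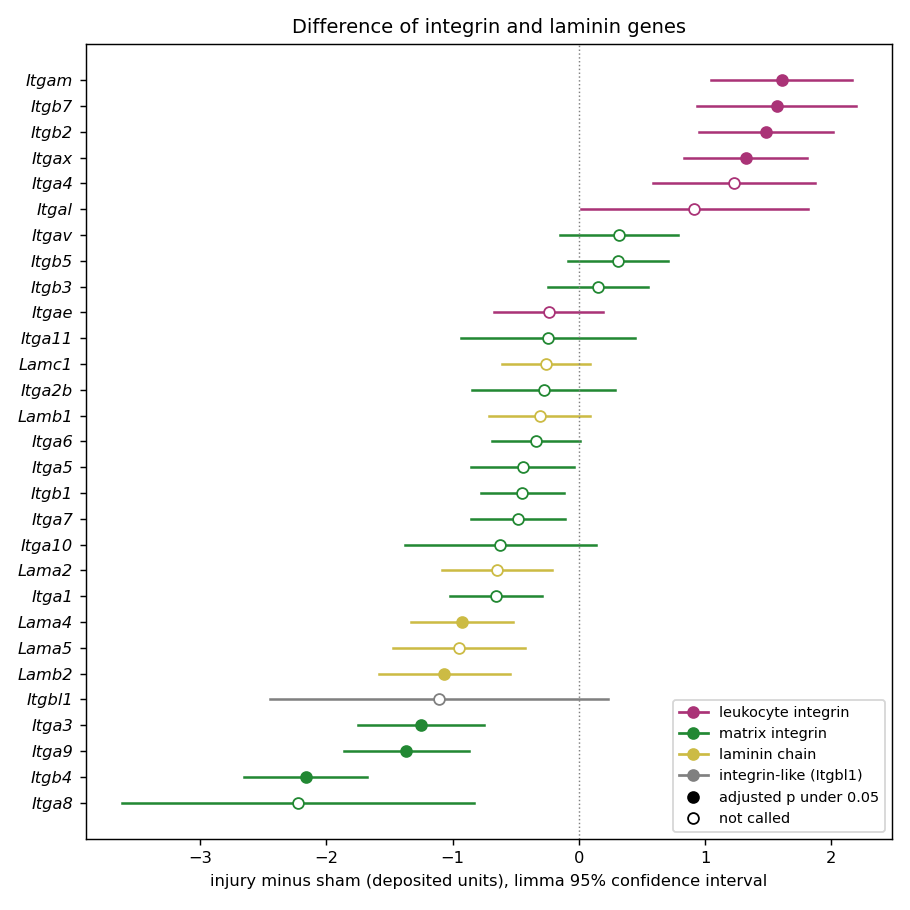
Difference between injury and sham in deposited units (horizontal axis) for 29 of the 30 genes (vertical axis), with limma's 95% confidence interval as a line, and filled points for an adjusted p-value under 0.05. Leukocyte integrins occupy the 6 highest places, from *Itgam* (1.61) to *Itgal* (0.91), while *Itgae* lies among the matrix integrins and laminins at -0.24.

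The beta-2 integrins are found on leukocytes alone, and each pairs the beta-2 chain of *Itgb2* with its own alpha chain. *Itgb2* (chromosome 10 of mm9, 76992997 to 77028453) stood at -1.07 and -0.76 in sham tissue and at 0.79 and 0.34 in injured tissue. Both injury values were above both sham values, with a difference of 1.48 (standard error 0.21, adjusted p = 0.0291 from limma). *Itgam*, the alpha-M chain (CD11b) of the complement receptor of macrophages and neutrophils, was at -1.20 and -0.85 after sham operation and at 0.83 and 0.34 after injury. Its difference of 1.61 (standard error 0.22, adjusted p = 0.0291 from limma) was the highest of the 30 genes and took place 193 among all genes. *Itgax*, the alpha-X chain (CD11c) of dendritic cells and of macrophages, was at -1.07 and -0.90 after sham operation and at 0.56 and 0.12 after injury. It rose by 1.32 (standard error 0.19, adjusted p = 0.0301 from limma). *Itgal*, the alpha-L chain (CD11a) of the LFA-1 receptor of lymphocytes and other leukocytes, was at -0.38 and -0.71 after sham operation. After injury its libraries lay far apart, at 0.90 and -0.16. The groups did not overlap, but the difference of 0.91 had a standard error of 0.36 and did not pass the test (adjusted p = 0.165 from limma). With injury replicate 1 left out it was 0.39, and with injury replicate 2 left out it was 1.44 and was called (adjusted p = 0.0157 from limma).

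The other leukocyte chains pair with beta-7 or beta-1. *Itgb7*, the beta-7 chain (chromosome 15, 102046426 to 102062366), had values of -1.02 and -0.79 after sham operation and of 1.0 and 0.32 after injury. It rose by 1.57 (standard error 0.25, adjusted p = 0.0327 from limma). *Itga4*, the alpha-4 chain that joins either beta-7 or beta-1 and binds VCAM-1, was at -0.41 and -1.09 after sham operation and at 0.61 and 0.35 after injury. Its groups were apart, with a difference of 1.23 (standard error 0.26), and its adjusted p-value of 0.0506 from limma lay just above the threshold. *Itga4* was called with a block for the replicate number (adjusted p = 0.0379 from limma) and after quantile normalization of the libraries (adjusted p = 0.0442 from limma). It was not called with the columns scaled to one spread (adjusted p = 0.0571 from limma) or a robust prior (adjusted p = 0.0542 from limma). *Itgae*, the alpha-E chain (CD103) of tissue-resident T cells and of some dendritic cells, is the other partner of beta-7. It had values of 0.18 and -0.17 after sham operation and of -0.30 and -0.16 after injury, groups that overlapped. Its difference was -0.24 with a 95% confidence interval from -0.67 to 0.19 (adjusted p = 0.411 from limma), and moved to -0.064 with sham replicate 1 left out and to -0.41 with sham replicate 2 left out. The interval of *Itgae* ended below that of *Itgb7*, which began at 0.94, though the gap between the genes was not itself tested. *Itgae* overlaps *Gsg2* on the other strand by 2810 bases and *Itga4* overlaps *Cerkl* on the other strand by 2581 bases. *Gsg2* was called higher (0.71, adjusted p = 0.0497 from limma) and *Cerkl* was not called (0.34, adjusted p = 0.184 from limma). The library kit keeps the strand, but whether reads were counted by strand is not given in the sources used here.

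Promoters are shown for genes that were called. *Itgam* and *Itgax* lie 1.4 kb apart on chromosome 7 in one orientation and both rose, *Itgb7* rose elsewhere in the genome and *Lamb2* is a gene that fell. Promoter sequences of RefSeq (GRCm38.p6) were found for 20 of the 30 genes, in 21 entries, and the 250 bases before the start of each matched a single place in mm9. GAGGAA is the core of sites bound by PU.1, a transcription factor of myeloid cells. Both strands were searched for GAGGAA, and matches are in capitals, as TTCCTC where the match is on the other strand. *Itgam* (chr7:135205904-135206153, + strand), *Itgax* (chr7:135272814-135273063, + strand), *Itgb7* (chr15:102062367-102062616, - strand) and *Lamb2* (chr9:108381943-108382192, + strand) are printed 5′ to 3′ in the direction of the gene.
Itgam: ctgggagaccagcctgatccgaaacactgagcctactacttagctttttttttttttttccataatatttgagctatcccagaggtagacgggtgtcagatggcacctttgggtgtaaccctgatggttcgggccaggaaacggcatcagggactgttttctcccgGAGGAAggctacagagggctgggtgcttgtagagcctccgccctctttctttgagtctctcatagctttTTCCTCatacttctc
Itgax: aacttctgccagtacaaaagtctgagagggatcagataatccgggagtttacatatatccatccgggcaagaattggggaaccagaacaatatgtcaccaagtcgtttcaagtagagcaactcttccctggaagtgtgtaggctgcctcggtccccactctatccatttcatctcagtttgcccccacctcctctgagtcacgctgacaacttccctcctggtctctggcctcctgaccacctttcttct
Itgb7: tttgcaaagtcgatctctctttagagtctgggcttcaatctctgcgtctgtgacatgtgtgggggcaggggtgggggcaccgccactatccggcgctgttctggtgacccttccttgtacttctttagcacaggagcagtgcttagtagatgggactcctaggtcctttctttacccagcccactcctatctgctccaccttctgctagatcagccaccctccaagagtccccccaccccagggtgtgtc
Lamb2: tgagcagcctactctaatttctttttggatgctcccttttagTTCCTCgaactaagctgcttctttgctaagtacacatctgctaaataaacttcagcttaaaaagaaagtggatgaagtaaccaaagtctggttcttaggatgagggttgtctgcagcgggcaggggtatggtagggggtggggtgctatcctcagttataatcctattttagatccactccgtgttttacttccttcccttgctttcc
*Itgam* had 2 matches, whose first bases lie 84 and 15 bases before the start, and *Lamb2*, which fell, had 1 at 208 bases. In *Itgax* and *Itgb7* these letters were not in the window. GAGGAA was present in 11 of the 20 genes with an entry, of which *Itgam*, *Itga3* and *Lamb2* were called, and in 23.3% of the 32851 promoters of the table. The first share counts genes and the second single promoters. *Itga3* has 2 entries, and its match lies in the one inside the gene and not in the one at the gene start. The CArG box, bound by serum response factor in smooth muscle genes, was in the window of 1 member, *Lama2*, and in 1.47% of all promoters. A match is a description of letters and not of a site in use.

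**Figure D2:**
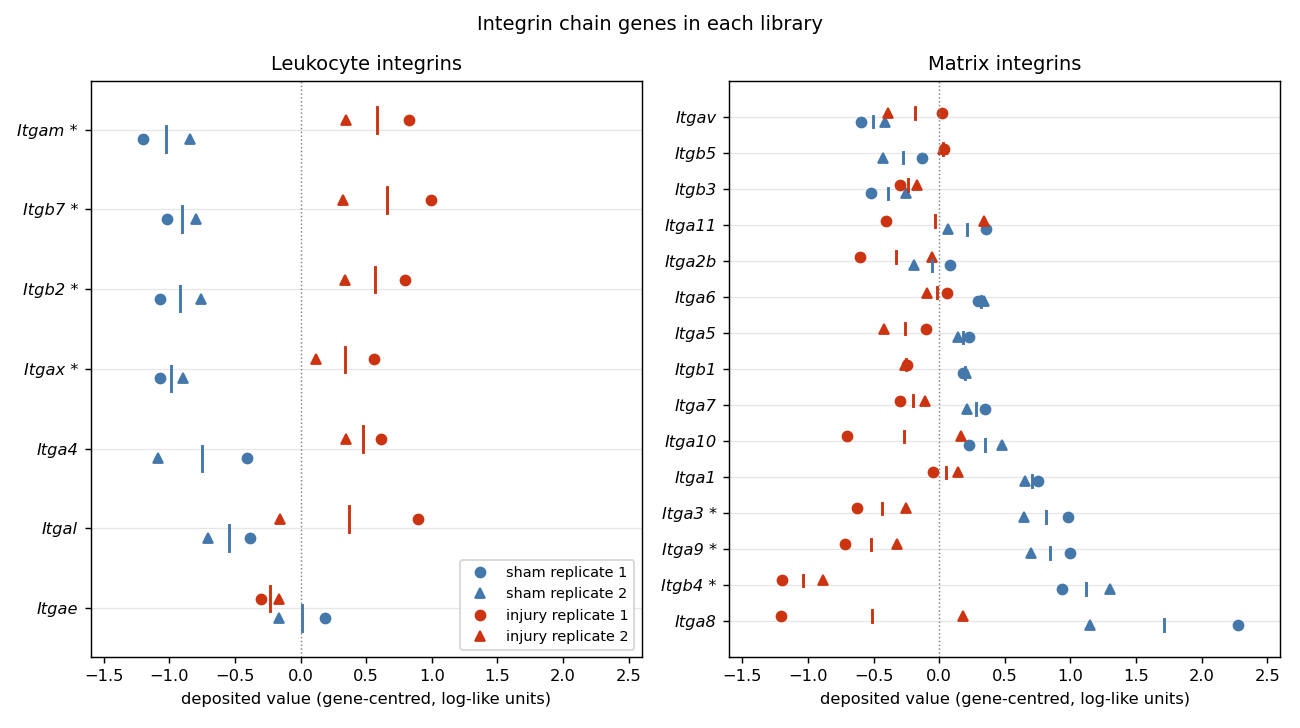
Deposited values (horizontal axis, gene-centred log-like units) of each integrin gene in the 2 sham libraries (blue) and the 2 injury libraries (red), with circles for replicate 1, triangles for replicate 2, vertical bars for group means and an asterisk on called genes. Red points lie to the right of blue points in 6 of the 7 leukocyte integrins and to their left in 10 of the 15 matrix integrins.

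Among matrix integrins, all 4 genes of laminin-binding chains had both injury libraries below both sham libraries, and 2 of them were called. *Itgb4*, the beta-4 chain that anchors cells to laminin and is known from epithelia and Schwann cells (chromosome 11, 115836023 to 115869726), was at 0.94 and 1.30 in sham tissue. In injured tissue it stood at -1.20 and -0.89. The gap between the nearest libraries of the groups was 1.82, the widest of the 30 genes. Its difference of -2.16 (standard error 0.19, adjusted p = 0.0285 from limma) took place 20 from the lowest among all genes. *Itga3*, the alpha-3 chain of a laminin receptor with beta-1, was at 0.98 and 0.64 after sham operation and at -0.62 and -0.25 after injury. It fell by 1.25 (standard error 0.20, adjusted p = 0.0327 from limma). *Itga7*, the laminin receptor chain of muscle, went from 0.35 and 0.21 in sham tissue to -0.30 and -0.11 in injured tissue. Its difference of -0.48 was not called (adjusted p = 0.104 from limma). *Itga6*, the only alpha partner of beta-4, was at 0.29 and 0.34 after sham operation and at 0.057 and -0.095 after injury. Its difference was -0.34 with a 95% confidence interval from -0.69 to 0.011 (adjusted p = 0.180 from limma), an interval that does not reach that of *Itgb4* (-2.65 to -1.67). *Itga6* is also a partner of beta-1, and the gap between *Itga6* and *Itgb4* was not itself tested.

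*Itga9*, the alpha-9 chain that joins beta-1 and binds tenascin-C and VCAM-1, was at 0.99 and 0.70 after sham operation and at -0.72 and -0.32 after injury. It fell by 1.37 (standard error 0.20, adjusted p = 0.0295 from limma). *Itgb1*, the beta-1 chain shared by most matrix integrins, had close replicates in both groups, at 0.18 and 0.21 after sham operation and at -0.24 and -0.26 after injury. The difference of *Itgb1* was small, -0.45 with a standard error of 0.13, and was not called (adjusted p = 0.0947 from limma).

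The RGD-binding chains held the lowest difference of all members as well as the matrix integrins with positive differences, and none of the 6 was called. *Itga8*, the alpha-8 chain of smooth muscle and mesenchymal cells, which binds nephronectin with beta-1, was at 2.27 and 1.15 after sham operation and at -1.21 and 0.18 after injury. The groups were apart, but the libraries of each group were spread widely. The difference of *Itga8*, -2.22 with a standard error of 0.56, was place 16 from the lowest among all genes and did not pass the test (adjusted p = 0.0706 from limma). With injury replicate 1 left out it was -1.53, and with injury replicate 2 left out it was -2.92 and was called (adjusted p = 0.0189 from limma). *Npnt*, which encodes nephronectin and is named after its values were seen, was at 1.71 and 0.53 in sham tissue and at -0.89 and 0.19 in injured tissue and was not called (adjusted p = 0.126 from limma). In *Itga8* and *Npnt* alike, sham replicate 1 was the highest and injury replicate 1 the lowest library. This order was not particular to them. It was also that of *Itga3*, *Itga9*, *Lama4*, *Lama5*, *Lamb2* and all 8 smooth muscle markers described below.

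*Itga5*, the fibronectin receptor chain, was at 0.22 and 0.14 after sham operation and at -0.10 and -0.42 after injury, with a difference of -0.44 (adjusted p = 0.148 from limma) that was -0.29 with injury replicate 2 left out. The alpha-V chain and the beta-5 and beta-3 chains that pair with it had positive differences, without passing the test. *Itgav* was at -0.60 and -0.41 after sham operation and at 0.018 and -0.39 after injury, a difference of 0.32 (adjusted p = 0.321 from limma). *Itgb5* was at -0.13 and -0.43 after sham operation and at 0.033 and 0.025 after injury, a difference of 0.31 (adjusted p = 0.258 from limma). *Itgb3*, the beta-3 chain of platelets, osteoclasts and endothelium, had overlapping groups at -0.52 and -0.26 against -0.30 and -0.17, a difference of 0.15 (adjusted p = 0.566 from limma). *Itga2b*, the platelet partner of beta-3, overlapped too, at 0.081 and -0.19 against -0.61 and -0.058, a difference of -0.28 (adjusted p = 0.464 from limma). With a library left out these values moved widely without a change of sign, *Itgav* between 0.11 and 0.52 (without injury replicate 1 and 2), *Itgb5* between 0.16 and 0.46 (without sham replicate 2 and 1), *Itga2b* between -0.0034 and -0.55 (without injury replicate 1 and 2) and *Itgb3* between 0.020 and 0.28 (without sham replicate 1 and 2).

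None of the 3 collagen-binding chains was called. *Itga1*, a collagen receptor chain of smooth muscle and other stromal cells, came closest, at 0.76 and 0.65 in sham tissue against -0.049 and 0.14 in injured tissue, with the groups apart. At -0.66, with a standard error of 0.15, its difference just missed the threshold (adjusted p = 0.0565 from limma). *Itga10*, known from cartilage, was at 0.23 and 0.48 against -0.70 and 0.16, a difference of -0.62 (adjusted p = 0.240 from limma). The difference of *Itga10* was -0.19 with injury replicate 1 left out and -1.06 and called with injury replicate 2 left out (adjusted p = 0.0265 from limma). *Itga11*, a fibroblast collagen receptor chain, had overlapping groups at 0.35 and 0.067 against -0.41 and 0.34. Its difference of -0.24 (adjusted p = 0.599 from limma) turned to 0.13 without injury replicate 1. *Itga1* overlaps *Pelo* on its own strand by 1832 bases, so reads in the shared part cannot be told apart. *Itgbl1*, which is no receptor chain, was at 0.83 and -0.013 after sham operation and at -1.44 and 0.051 after injury, with a difference of -1.11 (adjusted p = 0.236 from limma) that was -0.36 with injury replicate 1 left out and -1.85 and called with injury replicate 2 left out (adjusted p = 0.0323 from limma).

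In all 7 laminin chain genes the higher injury value lay below the lower sham value, and 2 of them were called. *Lamb2*, the beta-2 chain of vascular and neuromuscular basement membranes (chromosome 9, 108382193 to 108392861), was at 0.76 and 0.52 after sham operation and at -0.66 and -0.19 after injury. It fell by 1.07 (standard error 0.21, adjusted p = 0.0450 from limma). *Lama4*, the alpha-4 chain found around endothelium, adipocytes and muscle cells (chromosome 10, 38685321 to 38829994), stood at 0.59 and 0.40 in sham tissue and at -0.55 and -0.30 in injured tissue, and it fell by 0.92 (standard error 0.16, adjusted p = 0.0368 from limma). With a block for the replicate number both calls were lost, at adjusted p = 0.0631 for *Lamb2* and 0.0573 for *Lama4* from limma. *Lama5*, the alpha-5 chain of mature vascular and epithelial basement membranes, differed by as much as *Lama4*, at 0.96 and 0.56 in sham tissue against -0.38 and -0.0061 in injured tissue. Its difference of -0.95 (standard error 0.21) was not called (adjusted p = 0.0552 from limma). It was called after quantile normalization (adjusted p = 0.0452 from limma) and with the columns scaled to one spread (adjusted p = 0.0450 from limma), and not with the replicate block (adjusted p = 0.0824) or a robust prior (adjusted p = 0.0591).

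The other laminin chains differed less. *Lama2*, the alpha-2 chain of muscle and Schwann cell basement membranes, was at 0.30 and -0.033 after sham operation and at -0.59 and -0.43 after injury, a difference of -0.65 (adjusted p = 0.0799 from limma). *Lamb1* and *Lamc1* encode the beta and gamma chains shared by many laminins. *Lamb1* was at 0.16 and 0.35 against -0.18 and 0.069, a difference of -0.31 (adjusted p = 0.263 from limma) that was -0.19 with injury replicate 1 left out. *Lamc1* was at 0.34 and 0.31 against -0.015 and 0.14, a difference of -0.26 with a 95% confidence interval from -0.61 to 0.086 (adjusted p = 0.275 from limma).

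**Figure D3:**
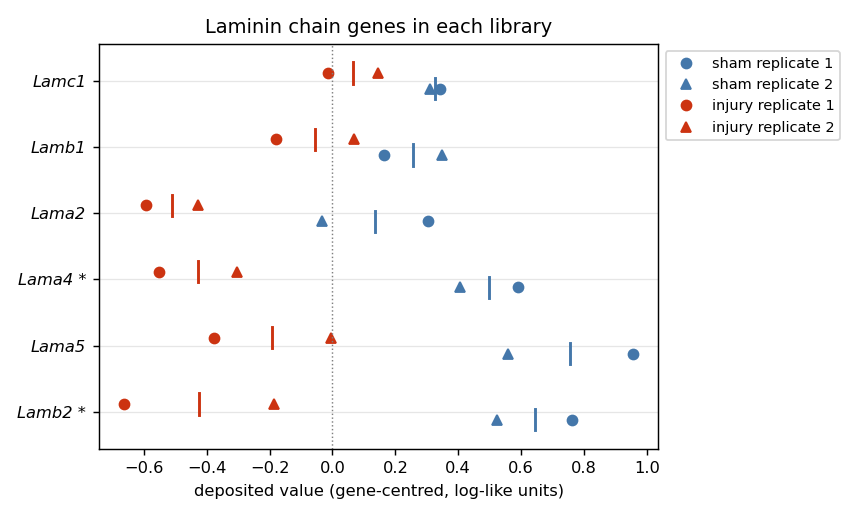
Deposited values (horizontal axis, gene-centred log-like units) of 6 laminin chain genes in the 2 sham libraries (blue) and the 2 injury libraries (red), with circles for replicate 1, triangles for replicate 2, vertical bars for group means and an asterisk on called genes. Every red point lies to the left of both blue points of its gene, and the gap is widest for *Lamb2* (0.71) and *Lama4* (0.71) and narrowest for *Lamb1* (0.095).

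The differences of chains that form one trimer or pair are set side by side here, and the gaps between chains were not tested. The laminin made of alpha-4, beta-2 and gamma-1 had differences of -0.92, -1.07 and -0.26, and that of alpha-4, beta-1 and gamma-1 had -0.92, -0.31 and -0.26. For integrin pairs, *Itgam* and *Itgb2* had 1.61 and 1.48, *Itga4* and *Itgb7* had 1.23 and 1.57, and *Itga9* and *Itgb1* had -1.37 and -0.45. These pairs share chains and are not independent of each other.

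Other genes of integrin and laminin biology were taken from 8 lists of ligands, matrix partners and adaptors, of which members called by limma are named up to the 4 with the largest differences in each list. Over all genes 3.76% were called higher and 3.67% lower, and 30.3% had both injury libraries below both sham libraries. Among the genes of basement membrane proteins that adjoin laminin, 12 were measured, 5 were called lower and none higher, and 11 had both injury libraries below both sham libraries. *Col4a5* (a type IV collagen chain, -2.18), *Ntn4* (a netrin that binds laminin, -1.74), *Nid1* (nidogen, which links laminin to type IV collagen, -0.72) and *Col4a1* (-0.69) fell. The list of laminin receptors other than integrins had 12 genes measured and also holds partners of such receptors that are not receptors themselves. Of these 12 genes 4 fell. They were the receptor genes *Bcam* (the Lutheran receptor of alpha-5 laminins, -1.63) and *Sdc1* (syndecan-1, -0.76). The others were *Dmd* (dystrophin, -1.19) and *Utrn* (utrophin, -0.86), whose proteins lie inside the cell and are not receptors. *Dag1*, the dystroglycan gene and named after its values were seen, differed by -0.36 and was not called (adjusted p = 0.142 from limma). Of 5 collagen genes 2 fell, *Col3a1* (-0.96) and *Col1a1* (-0.78). With a block for the replicate number the calls of *Col3a1*, *Col1a1*, *Nid1*, *Col4a1*, *Utrn* and *Sdc1* were lost, and so was that of *Agrn* (agrin, -0.69), the other basement membrane gene called lower. Among 19 genes of RGD and other matrix ligands 1 rose, *Spp1* (osteopontin, 2.25), and 2 fell, *Vwf* (von Willebrand factor, -2.40) and *Fbln5* (fibulin-5, -1.29).

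Most ligands of leukocyte integrins had negative differences. Both injury libraries lay below both sham libraries in 8 of 11 genes, an order found in 30.3% of all genes. Of these 11 genes 1 rose, *Selplg* (the P-selectin ligand carried by leukocytes, 1.63), and 2 fell, *Icam2* (-1.06) and *Jam2* (-0.93). *Icam1*, the main ligand of the beta-2 integrins, was at 0.31 and 0.80 after sham operation and at -0.092 and -0.70 after injury. *Vcam1*, the ligand of alpha-4 integrins, was at 0.95 and 0.27 after sham operation and at -0.43 and -0.48 after injury. Both had groups apart, and neither was called (adjusted p = 0.0897 for *Icam1* and 0.0591 for *Vcam1* from limma); they are named after their values were seen.

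Adaptor genes moved in both directions, where 3.76% of all genes were called higher and 3.67% lower. Of 18 integrin activators and adaptors 5 rose, *Vav1* (2.27), *Fyb* (1.93), *Rassf5* (1.63), *Fermt3* (1.30) and *Apbb1ip* (1.26), and 1 fell, *Flna* (filamin A, -1.22). *Fermt3* encodes kindlin-3 of blood cells, *Rassf5* and *Apbb1ip* (RIAM) act with Rap1 in integrin activation, and *Vav1* and *Fyb* are signalling proteins of leukocytes. Tissue-wide counterparts, named after their values were seen, did not pass the test, with *Fermt2* (kindlin-2) at -0.36 and *Tln1* (talin-1) at -0.10 (adjusted p = 0.232 and 0.707 from limma). Of 26 focal adhesion and signalling genes 5 rose and 3 fell. Among those that rose were *Fgr* (2.07), *Lpxn* (leupaxin, 1.80), *Parvg* (gamma-parvin, 1.67) and *Syk* (1.52), all known from blood cells. Those that fell were *Actn1* (alpha-actinin-1, -1.67), *Tgfb1i1* (Hic-5, -1.08) and *Bcar1* (p130Cas, -0.72). *Apbb1ip*, *Flna*, *Parvg*, *Syk*, *Tgfb1i1* and *Bcar1* are named beyond the 4 of their list. Among 9 tetraspanins, membrane proteins that associate with integrins, *Cd53* (1.68) and *Tspan32* (1.0) rose and *Tspan4* (-0.78) fell. With a block for the replicate number the calls of *Cd53*, *Tspan32*, *Tspan4*, *Tgfb1i1* and *Bcar1* were lost.

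**Figure D4:**
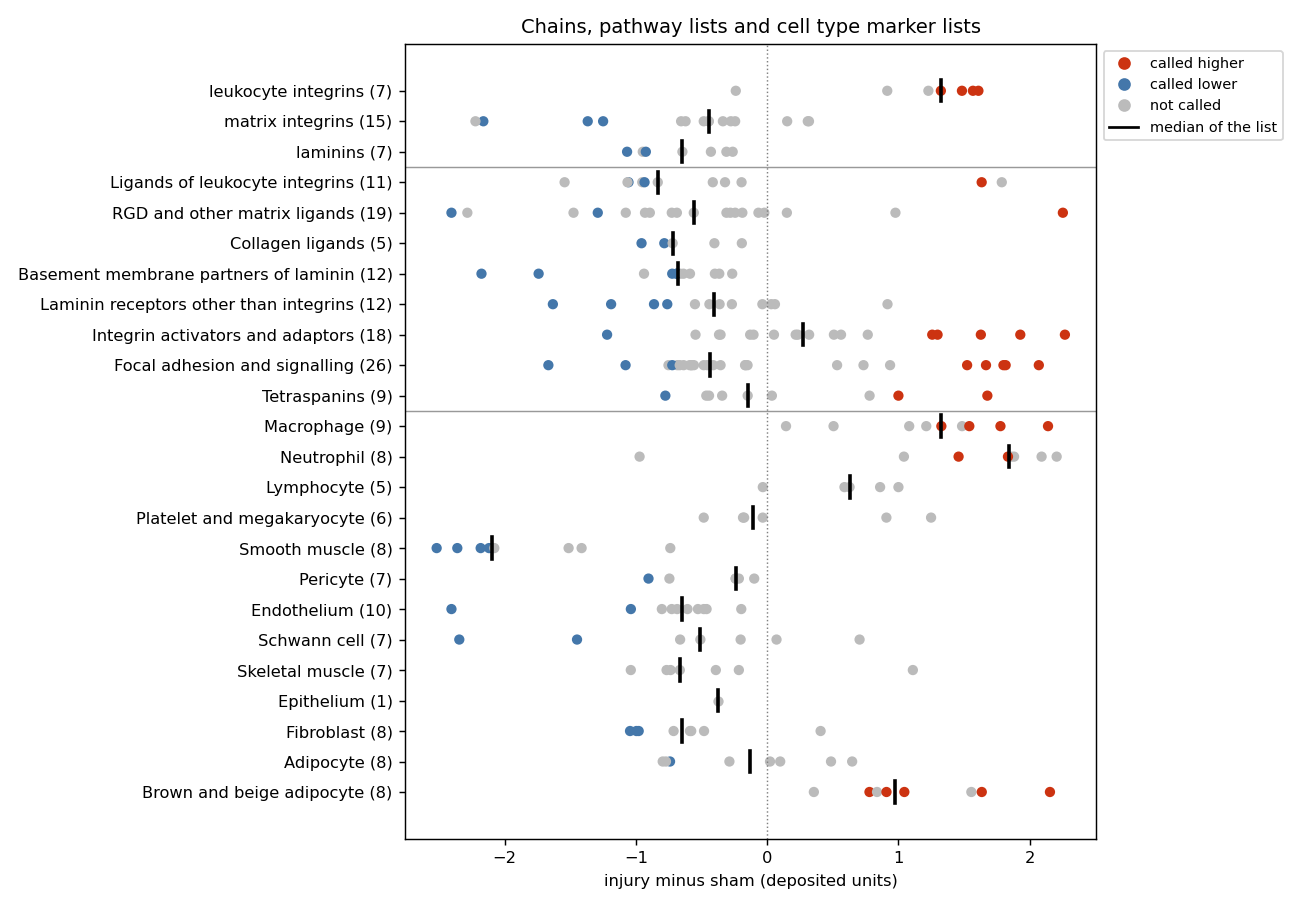
Difference between injury and sham in deposited units (horizontal axis) of each measured gene in the member groups (top block), the pathway lists (middle) and the cell type marker lists (bottom), with the number of genes in brackets, red and blue points for genes called higher and lower, and a black bar for the median. The medians of leukocyte integrins (1.32), macrophage markers (1.33) and neutrophil markers (1.85) lie to the right, and those of laminins (-0.65), endothelium (-0.65) and smooth muscle (-2.10) to the left.

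Marker genes of cell types moved along with these groups, and their part in the results was not tested. Their calls stand beside 3.76% of all genes called higher and 3.67% called lower. Of 9 macrophage markers all had positive differences and 4 rose, *Fcgr1* (2.14), *Aif1* (1.78), *Lyz2* (1.54) and *Csf1r* (1.33), and the median of the list was -1.20 and -1.13 in the sham libraries and 0.55 and -0.095 in the injury libraries. The call of *Fcgr1* was lost with the replicate block (adjusted p = 0.0586 from limma). Of 8 neutrophil markers *Retnlg* (1.83) and *Mmp8* (1.46) rose, with list medians of -1.23 and -0.97 against 1.16 and 0.052. The neutrophil marker *Lcn2*, named after its values were seen, went the other way, at 0.63 and 1.09 after sham operation and at 0.079 and -0.30 after injury (adjusted p = 0.0594 from limma). The median of the leukocyte integrins moved likewise, from -1.02 and -0.79 to 0.79 and 0.32. No lymphocyte marker of 5 was called, the highest being *Nkg7* (1.0, adjusted p = 0.0776 from limma). No platelet marker of 6 was called, the highest being *Pf4* (1.25, adjusted p = 0.0544 from limma).

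Among markers of muscle, vessel, nerve, stromal and fat cells, the lists differed in how many genes passed the test. All 8 smooth muscle markers had both injury libraries below both sham libraries, an order found in 30.3% of all genes. Of these markers 4 fell, *Myh11* (-2.52), *Cnn1* (-2.36), *Acta2* (-2.18) and *Tagln* (-2.12), where 3.67% of all genes were called lower. With a block for the replicate number all 4 calls were lost, at adjusted p-values from 0.0521 (*Cnn1*) to 0.0652 (*Myh11*) from limma. Of 10 endothelial markers 2 fell, *Vwf* (-2.40) and *Pecam1* (-1.04), 9 had both injury libraries below both sham libraries, and the list median was -0.65. Of 7 Schwann cell markers 2 fell, among them the myelin gene *Prx* (-1.45), 5 had negative and 2 positive differences, and the list median was -0.51. *S100b*, named after its values were seen, differed by 0.70 with the groups apart and was not called (adjusted p = 0.0615 from limma). Of 7 pericyte markers *Cspg4* fell (-0.90), and of 8 fibroblast markers *Lum* (-1.04), *Dcn* (-1.0) and *Cd34* (-0.98) fell. *Pdgfra*, a fibroblast marker named after its values were seen, differed by 0.41 and was not called (adjusted p = 0.271 from limma). No skeletal muscle marker of 7 was called. The largest difference was that of *Pvalb* (1.11, adjusted p = 0.0713 from limma), the one positive value of the list, and the other 6 were negative, with a list median of -0.67. A single epithelial marker of 8, *Trp63*, was among the genes of the table (-0.37, adjusted p = 0.411 from limma), and keratins and *Epcam* of that list were not. All 8 pan-adipocyte markers were present in the table. *Plin1* fell (-0.74), while 4 had positive and 4 negative differences and the list median was -0.13. *Lpl*, named after its values were seen, differed by 0.65 and was not called (adjusted p = 0.0953 from limma). Of 8 brown and beige adipocyte markers 5 rose, led by *Cidea* (2.15), *Cpt1b* (1.63), *Kcnk3* (1.04) and *Cox7a1* (0.91). The calls of *Cspg4*, *Lum*, *Dcn*, *Plin1* and *Cox7a1* were lost with the replicate block.

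The injury libraries were not alike. Of the 25 members whose groups did not overlap, injury replicate 1 lay farther from the sham mean than injury replicate 2 in 22, or 88%, and among all genes with groups apart it did so in 63.3%. This held for all 6 such leukocyte integrins, for all 7 laminins and for 9 of 12 matrix integrins. The median of leukocyte integrins minus that of matrix integrins was -1.31 and -1.01 in the sham libraries, 1.09 in injury replicate 1 and 0.43 in injury replicate 2. The spread between the injury libraries in this measure (0.66) was larger than that between the sham libraries (0.30).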

How the data were processed

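Total RNA of 4 libraries was made into stranded mRNA libraries and sequenced by the authors as paired-end reads. Per the paper's methods and the submitters' notes, reads were checked with FastQC 0.11.8, cleaned with Cutadapt 1.18 and Trimmomatic 0.39, aligned to mm9 with STAR 2.6.0a, counted with featureCounts and tested with DESeq2 1.28.0 in R 3.6.0. The authors deposited one signed score per gene and library, from -2.27 to 6.45, with 50.5% of scores below 0 and library medians within -0.0062 and -0.0028. How these scores were made from counts, and which filter left 12661 genes, is not given in the sources used here. Depth is unknown, so no counting interval is given.

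The deposited scores were fitted without change or filter with limma 3.58.1 in R 4.3.3 (lmFit and eBayes, group as the only term, 2 residual and 3.48 prior degrees of freedom), and the script was tested on simulated data. Members, groups and lists were chosen with earlier results of these data known. Named genes were all members and, per list, up to 4 called genes with the largest absolute difference, or the single largest where none was called. Coordinates are from GENCODE M1 on NCBIM37, the assembly of mm9. Alternatives were a replicate block, each library left out, an adjusted p-value under 0.1, libraries scaled to an equal spread or quantile normalized, a robust prior, identical rows counted once and a minimum difference of 1 unit. Python 3.11.15, pandas 2.3.3, numpy 2.4.6 and matplotlib 3.10.9 were used. The values of 1 member and of some genes of the lists are not reported here and enter the counts and medians only.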

Additional observations from a re-analysis of the deposited data

How the results depend on the processing

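No member changed its direction after quantile normalization or with columns scaled to one spread. The other settings with all 4 libraries leave the difference of a gene as it is, so they could not change a direction. The 9 calls were kept with a robust prior, with identical rows counted once, after quantile normalization (11 calls) and with columns scaled to one spread (10 calls). An adjusted p-value under 0.1 gave 15 members, with 6 matrix integrins and 4 laminins, and 2317 genes in all. A minimum difference of 1 unit left 1 laminin and 591 of all genes called. Both changes follow from the thresholds. With the replicate block 8 members were called, of which 7 were called without it, and 684 genes in all. No laminin was called with the block (0, against 2 without it, with 4 laminins under an unadjusted p-value of 0.05 in the limma fit without it), and *Itga4* was gained. Of the 57 list genes called, 24 lost their call with the block, at adjusted p-values of 0.0506 to 0.0739 from limma, and of the named genes not called *Pf4* was gained (adjusted p = 0.0358). The deviations of same-numbered libraries correlated at -0.094 across genes, so the numbers were not taken as pairs. With each library left out, limma called 0 to 16 members, 0 to 6 leukocyte integrins, 0 to 6 matrix integrins, 0 to 3 laminins and between 0 and 1790 of all genes, with 1 residual degree of freedom. The median difference then lay between -0.58 and -0.41 for matrix integrins, between 1.10 and 1.54 for leukocyte integrins and between -0.81 and -0.48 for laminins. Without injury replicate 1 the difference of *Itga11* turned to 0.13 (it was -0.62 without injury replicate 2), and the cause was not tested.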
